A study of Homo sapiens with 9 samples.

Results

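The matrix proteases, their inhibitors and the lysyl oxidases were examined in OVCA433, an established cell line of ovarian serous adenocarcinoma, after knockdown of MPZL3. The members were the protein-coding genes of the count table whose symbols name a matrix metalloproteinase (MMP), a tissue inhibitor of metalloproteinases (TIMP), an ADAMTS protease, or LOX and its LOX-like relatives. There were 51 of them among 58676 listed genes, namely 23 MMP, 4 TIMP, 19 ADAMTS and 5 lysyl oxidase genes. Of these, 33 had at least 10 counts in at least 3 libraries and are described with values, and the same 33 passed the filter on low counts of the tests. A gene that passed only through the group in which it was high had to differ, so counts over the 33 are descriptions and not counts over all members.

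MMPs are zinc-dependent endopeptidases that cut collagens, gelatin, laminin and many cell-surface proteins. Most are secreted as inactive zymogens, while the membrane-type MMPs are tethered to the cell surface, where MMP14 activates pro-MMP2 in a complex that also holds TIMP2. TIMPs bind the active site of MMPs, and TIMP3 also inhibits several ADAM and ADAMTS proteases. ADAMTS proteases carry thrombospondin repeats and are secreted. Some cut large proteoglycans such as versican and aggrecan, others remove the N-propeptide of fibrillar procollagens, and others act on fibrillin microfibrils, cartilage oligomeric matrix protein or von Willebrand factor. Lysyl oxidases oxidise lysine residues of collagen and elastin so that the fibres crosslink. In ovarian cancer these enzymes are studied for invasion through the mesothelial layer of the peritoneum and for the stiffness of the omental matrix.

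MPZL3 is a predicted cell adhesion molecule, and the comparison asks how its loss changes the transcripts of these families. The 9 libraries were 3 of OVCA433 cells with a control vector, 3 with shRNA#1 and 3 with shRNA#3 against MPZL3, marked A, B and C in each group. All groups, the controls included, had been transduced with lentivirus, and the study's methods describe puromycin selection for this line. The methods call the control of this line an empty vector in 1 place and a scrambled hairpin in another, so it cannot be told whether the control cells also expressed a hairpin. The methods call the replicates biological, but neither they nor the labels say whether separate transductions stand behind the letters, so the p-values measure the spread between these libraries. In bulk RNA, fewer cells that express a gene and less RNA of it per cell cannot be told apart.

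Library totals ranged from 16850854 to 23890191 counts. MPZL3 itself was at 15.6, 21.9 and 21.03 CPM (counts scaled to library size) in the control libraries, 1.87, 1.98 and 1.8 with shRNA#1 and 1.94, 0.988 and 1.79 with shRNA#3, and fell with both, at a pooled log2 fold change of -3.49 (SE 0.19, adjusted p = 6.87e-08). Of the markers of the labelled cell type, PAX8, SOX17 and the keratins KRT7, KRT8 and KRT18 were present in all libraries. WT1 had 0 counts in all of them. The list split in direction. PAX8 had means of 96.99 CPM in the control, 199.9 CPM with shRNA#1 and 207.3 CPM with shRNA#3. In that order SOX17 had 14.34, 28.17 and 27.64 CPM and MSLN 68.39, 85.89 and 148.9 CPM. EPCAM had 402.6, 5.48 and 8.93 CPM, and the means of KRT7, KRT8 and KRT18 were lower with both hairpins. MUC16, which encodes CA125, and CDH1, the epithelial cadherin, had means of 3.18 and 275.3 CPM in the control and of 0 and 0.112 CPM with shRNA#1 and 0 and 0.148 CPM with shRNA#3. The 11 genes of this list summed to 10310 to 12410 CPM in the control, where 9 had means of at least 1 CPM, to 5301 to 6800 CPM with shRNA#1 and to 5296 to 5990 CPM with shRNA#3, where 7 had. The summed level of 9 fibroblast markers moved with the groups, from 19.01 to 23 CPM in the control libraries to 109.7 to 447 CPM with shRNA#1 and 503 to 871 CPM with shRNA#3. Most of it was COL1A1. FAP was lower, with means of 0.55 CPM in the control, 0.352 CPM with shRNA#1 and 0.129 CPM with shRNA#3. PDGFRB went from a mean of 0.555 CPM in the control to 13.8 CPM with shRNA#1 and 16.8 CPM with shRNA#3, LUM from 1.55 to 4.17 and 2.45 CPM, and COL1A2 from 0.0161 to 2.65 and 0.869 CPM, while DCN was at 0 in every library and PDGFRA and THY1 had means under 0.5 CPM in each group. The leukocyte list summed to at most 1.31 CPM in any library, and the endothelial list of 4 genes went from at most 1.02 CPM in the control to 4.16 to 7.503 CPM with the hairpins. The 5 mesothelial markers summed to 92.8 to 116.0 CPM in the control, 10.6 to 31.9 CPM with shRNA#1 and 21.3 to 39.2 CPM with shRNA#3. In the same order UPK3B had means of 57.19, 0.541 and 0.746 CPM and UPK1B of 33.37, 0.0286 and 1.72 CPM. LRRN4 went the other way, with 10.44, 17.4 and 25.08 CPM. In the endothelial list CDH5 had 0.0971, 2.29 and 3.7 CPM and KDR 0.291, 2.54 and 1.71 CPM. PECAM1 and VWF had means under 1 CPM in each group. The part of these markers in the results below was not tested.

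Among members called in the pooled comparison, most proteases and the lysyl oxidases LOX and LOXL1 were higher after MPZL3 knockdown. The inhibitors TIMP3 and TIMP4 were lower, while TIMP1 and TIMP2, like LOXL2 and LOXL3, were not called. Calls needed both a Benjamini-Hochberg adjusted p under 0.05 from edgeR's quasi-likelihood test of 15975 genes and a log2 fold change of 1 or more in size. When both hairpins formed 1 arm of 6 libraries against the 3 controls, 19 of 33 members were called, against 14.7% of all tested genes. Of these, 13 were higher, where 7.26% of all genes were, and 6 lower, where 7.4% of all genes were. The median log2 fold change of the 33 was 0.98, beside 0.0045 for all tested genes. With shRNA#1 alone 18 members were called (16.3% of all genes), 13 of them higher (7.76% of all genes) and 5 lower (8.55% of all genes). With shRNA#3 alone 19 were called (15.3% of all genes), 13 higher (7.46% of all genes) and 6 lower (7.83% of all genes). Both comparisons used the same 3 control libraries. Of the called members, MMP7 reached 10 counts only in the control, and MMP11 and ADAMTS4 only with the hairpins. MMP19 did so only with shRNA#1 and MMP1 only with shRNA#3. TIMP4 did so in the controls and otherwise only in shRNA#3 A (11 counts). MMP17 did so in no shRNA#3 library (4 counts at most), and ADAMTS2 in no control library but C (21 counts). These genes entered the tests only through libraries in which they were high, so their calls are no support.

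By hairpin, 11 members rose with both: MMP2, MMP14, MMP16, ADAMTS2, ADAMTS3, ADAMTS4, ADAMTS5, ADAMTS10, ADAMTS15, LOX and LOXL1. Another 4 fell with both, namely MMP7, TIMP3, TIMP4 and ADAMTS17, and none was called in opposite directions. Of all tested genes, 5.58% were called higher with both hairpins, 6.23% lower with both and 0.188% in opposite directions, in comparisons that share their controls. The calls with shRNA#1 alone were MMP11 and MMP19 (higher) and ADAMTS9 (lower), and those with shRNA#3 alone were MMP1 and MMP9 (higher) and MMP15 and MMP17 (lower). The other 11 were called with neither hairpin against control. The shares of all tested genes called with 1 hairpin alone or with neither were not computed.

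**Figure D1:**
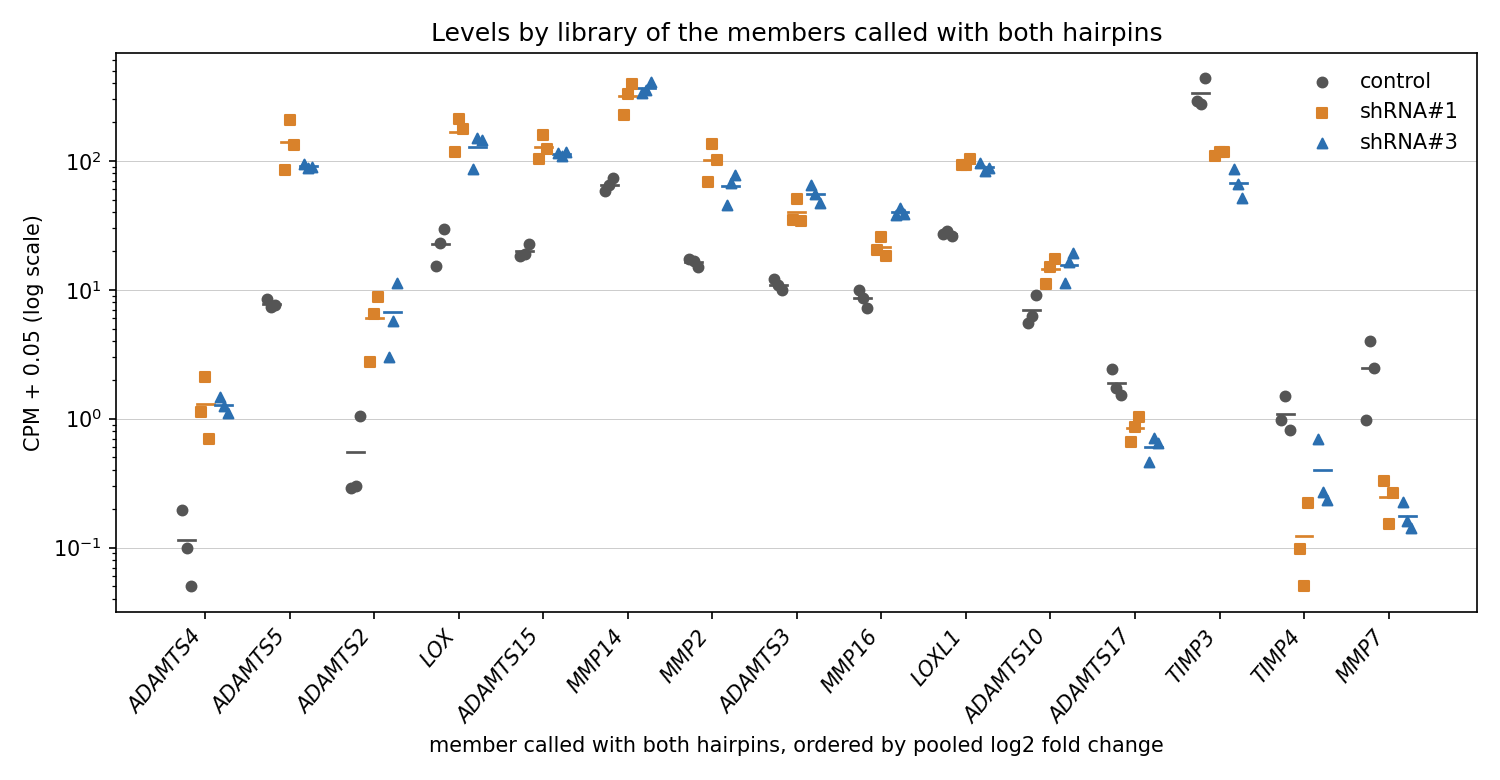
CPM in every library, plus 0.05 so that 0 can be drawn, on a log scale, for the 15 members called with both hairpins, ordered by their pooled log2 fold change. Points are libraries and short lines group means: for the 11 members on the left every knockdown library lies above every control library, and for the 4 on the right every knockdown library lies below. The members were picked by their calls against the same controls, so this separation is no separate support. The share of all tested genes that separate in this way was not computed.

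Promoter windows of 4 members that the results turn on are shown because they moved strongly and differ in sequence composition: MMP7 and TIMP3, which fell, and MMP14 and LOXL1, which rose. Each runs from 250 bases before to 50 bases after an annotated start in RefSeq (GRCh38.p14), 5′ to 3′ on the strand of the gene, and capitals mark every match to any of 4 motifs on either strand. The first is the AP-1 site, TGANTCA. The next is the E-box of the kind bound by ZEB and Snail factors, CACCTG. The TATA box was searched as TATAAA. The GC box was searched as GGGCGG. MMP7 lies at chr11:102530698-102530997, minus strand, MMP14 at chr14:22836335-22836634, plus strand, TIMP3 at chr22:32801455-32801754, plus strand, and LOXL1 at chr15:73926212-73926511, plus strand.
MMP7: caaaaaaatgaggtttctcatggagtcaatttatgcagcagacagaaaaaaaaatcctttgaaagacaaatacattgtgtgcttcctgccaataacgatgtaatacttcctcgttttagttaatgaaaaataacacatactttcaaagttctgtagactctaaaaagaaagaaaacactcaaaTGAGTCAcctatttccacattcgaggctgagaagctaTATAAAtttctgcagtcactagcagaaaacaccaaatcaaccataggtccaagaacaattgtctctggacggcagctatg
TIMP3: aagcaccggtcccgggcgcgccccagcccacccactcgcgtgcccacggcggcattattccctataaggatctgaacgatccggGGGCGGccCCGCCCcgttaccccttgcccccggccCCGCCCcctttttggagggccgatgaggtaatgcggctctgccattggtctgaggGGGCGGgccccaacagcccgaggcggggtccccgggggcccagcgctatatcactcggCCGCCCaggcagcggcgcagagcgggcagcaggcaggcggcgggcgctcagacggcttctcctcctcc
MMP14: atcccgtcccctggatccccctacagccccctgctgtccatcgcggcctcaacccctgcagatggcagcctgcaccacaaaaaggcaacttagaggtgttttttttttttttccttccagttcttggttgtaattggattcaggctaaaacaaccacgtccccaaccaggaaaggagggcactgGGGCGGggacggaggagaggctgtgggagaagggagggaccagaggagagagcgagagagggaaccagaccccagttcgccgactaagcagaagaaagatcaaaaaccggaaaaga
LOXL1: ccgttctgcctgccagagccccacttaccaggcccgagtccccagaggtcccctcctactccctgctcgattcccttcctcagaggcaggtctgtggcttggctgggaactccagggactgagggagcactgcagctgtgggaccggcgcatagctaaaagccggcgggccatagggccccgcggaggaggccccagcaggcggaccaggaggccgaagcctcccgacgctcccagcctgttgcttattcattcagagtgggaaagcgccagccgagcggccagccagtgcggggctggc
The MMP7 window was 35.7% G and C with 4 CpG pairs, an AP-1 match that begins 67 bases before the start and a TATA match 30 bases before it. The TIMP3 window was 72.7% G and C with 31 CpG pairs and 5 GC box matches. The MMP14 window held 1 GC box match, and the LOXL1 window held none of the 4 motifs. No matches overlapped in these windows. The median over all 35116 windows of that length in the table was 58.7% G and C and 14 CpG pairs. RefSeq windows were used for 19 of the 33 members, 23 windows in all. Of these windows 2 held an AP-1 match, 5 an E-box, 2 a TATA box and 16 a GC box, beside 7.71%, 20.6%, 11.5% and 45.0% of all windows. The E-box windows belonged to 4 genes, since 2 overlapping windows of LOX held the same site. A match describes the letters and does not show binding.

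MMP14, the main membrane-type collagenase and activator of pro-MMP2, was the most abundant MMP per length in all groups and rose with both hairpins. It stood at 57.9, 64.95 and 72.97 CPM in control libraries A, B and C, at 227, 328 and 391 CPM with shRNA#1 and at 338, 354 and 409 CPM with shRNA#3. The lowest knockdown library was thus above the highest control library, and the pooled log2 fold change came to 2.39 (SE 0.18, adjusted p = 1.04e-06). Per kilobase of exon, MMP14 had a mean of 14.6 CPM in the control, 70.7 with shRNA#1 and 82.2 with shRNA#3, which was 51.8%, 67.02% and 69.9% of the summed level of all MMPs on that scale.

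MMP2, the secreted gelatinase that MMP14 activates, rose alongside it. Control libraries held 17.1, 16.6 and 14.9 CPM of MMP2, shRNA#1 libraries 68.2, 135 and 101 CPM and shRNA#3 libraries 45.7, 67.5 and 77.6 CPM. The log2 fold change was 2.64 (SE 0.24, adjusted p = 1.29e-06) with shRNA#1 and 1.97 (SE 0.23, adjusted p = 1.93e-05) with shRNA#3. The hairpins overlapped in MMP2 level, and their difference of -0.67 did not pass (adjusted p = 0.0669). With the letter as a replicate block it was -0.65 (adjusted p = 0.0048), under the fold threshold.

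MMP16, another transmembrane MMP, was at 9.88, 8.61 and 7.22 CPM in the control, 20.1, 25.6 and 18.3 CPM with shRNA#1 and 38.01, 42.96 and 38.8 CPM with shRNA#3. All libraries of each group were above those of the group before, in the order control, shRNA#1, shRNA#3. The log2 fold changes were 1.31 (SE 0.15, adjusted p = 1.41e-05) and 2.22 (SE 0.15, adjusted p = 1.09e-07), and the difference between the hairpins was 0.91 (SE 0.14, adjusted p = 0.00112), under the fold threshold, and 1.06 (adjusted p = 0.00124) without shRNA#1 B. Other tested genes within 5 Mb of MMP16 had a median pooled log2 fold change of -0.43, in the opposite direction.

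MMP9, the second gelatinase, was second to MMP14 among MMPs per length in the control. It went from 11.5, 19.2 and 15.3 CPM in the control to 23.3, 23.9 and 27.6 CPM with shRNA#1 and 34.4, 43.3 and 42.7 CPM with shRNA#3, with no overlap among the 3 groups. MMP9 was called with shRNA#3 at 1.39 (SE 0.17, adjusted p = 2.24e-05) and not with shRNA#1, where the log2 fold change was 0.7 (SE 0.17, adjusted p = 0.00457), and the difference of shRNA#3 from shRNA#1 was 0.69 (SE 0.16, adjusted p = 0.0142), under the fold threshold. The pooled call at 1.08 slipped under the fold threshold without control A, at 0.91 (adjusted p = 0.0265), and without shRNA#3 B or C, at 0.98 (adjusted p = 0.00778) and 0.98 (adjusted p = 0.00741). The other 84 tested genes within 5 Mb of MMP9 had median log2 fold changes of -0.26 with shRNA#1 and 0.02 with shRNA#3 and a median difference of 0.30 between the hairpins, whose part in the MMP9 value was not tested. An antisense gene shares 18.4% of the exonic bases of MMP9, and the libraries carried no strand, so reads from the shared part cannot be told apart.

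The remaining membrane-type MMPs did not follow MMP14. MMP15, a transmembrane relative, held 3.78, 8.36 and 5.83 CPM in the control, 2.34, 4.07 and 4.16 CPM with shRNA#1 and 1.65, 1.81 and 2.07 CPM with shRNA#3. It fell with shRNA#3 (-1.69, SE 0.31, adjusted p = 0.000811). The value with shRNA#1 was -0.76 (SE 0.29, adjusted p = 0.0525), and control and shRNA#1 libraries overlapped. With the letter as a replicate block the shRNA#1 value was -0.75 (adjusted p = 0.00618), under the fold threshold. Without control A the shRNA#1 value passed, at -1.01 (adjusted p = 0.0097), and without shRNA#1 A the difference between hairpins passed, at -1.15 (adjusted p = 0.0262) against -0.93 with it. The pooled call of MMP15 (-1.15, SE 0.33, adjusted p = 0.0196) was lost without control B, at -0.83 (adjusted p = 0.14), or control C, at -1.17 (adjusted p = 0.0547). MMP17, which is anchored by a lipid rather than a transmembrane segment, was scarce at 0.533, 0.448 and 0.86 CPM in the control and 0.327, 0.356 and 0.729 CPM with shRNA#1, and at 0.0588, 0.22 and 0.046 CPM with shRNA#3, from 4 counts at most. It fell with shRNA#3 (-2.47, SE 0.65, adjusted p = 0.00915) and the value without shRNA#3 B was -3.43 (adjusted p = 0.00695). With the letter as a replicate block, the difference between hairpins for MMP17 passed as well, at -2.09 (adjusted p = 0.0362) against -2.11 (SE 0.67, adjusted p = 0.0592) without it, and adjusted p ranged from 0.0362 to 0.217 over the alternatives. It also passed without shRNA#1 A, without shRNA#3 B and with no filter on low counts (adjusted p = 0.0488). In the pooled comparison MMP17 was called only in the 3-group model, at -1.42 (adjusted p = 0.0306). MMP24, a transmembrane MMP known mainly from neurons, had means of 1.15 ± 0.374, 0.985 ± 0.293 and 1.06 ± 0.178 CPM (SD, n = 3 each) and no call, and shares 18.1% of its exonic bases with an overlapping gene on the other strand.

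MMP7, the matrilysin of epithelial cells, went the other way from the gelatinases. Its control libraries were at 0.92, 3.93 and 2.44 CPM, against 0.28, 0.102 and 0.214 CPM with shRNA#1 and 0.176, 0.11 and 0.0921 CPM with shRNA#3. In counts these were 19, 79 and 51, then 6, 2 and 5, then 3, 2 and 2, so shRNA#3 was at or under 3 counts per library in all 3. The log2 fold change was -3.55 (SE 0.56, adjusted p = 0.000234) with shRNA#1, and with shRNA#3 the level was at least 15.2-fold lower, computed against 3 counts in each library (adjusted p = 0.000145). This floor covers counting error only.

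MMP7 lies in a cluster of 9 MMP genes within 435.2 kb of chromosome 11 (102520508 to 102955734 on GRCh38). Only MMP7 and MMP1 of the cluster reached the reporting level, and the other 7, MMP3, MMP8, MMP10, MMP12, MMP13, MMP20 and MMP27, had at most 3 counts in any library. MMP1, the interstitial collagenase, had 0, 2 and 6 counts in the control libraries, 2, 0 and 0 with shRNA#1 and 12, 16 and 91 with shRNA#3. It rose with shRNA#3 at 3.86 (SE 0.89, adjusted p = 0.00399), and 1 library carried much of that size, since without shRNA#3 C the value was 2.55 (adjusted p = 0.0299), and without control C it was 5.16 (adjusted p = 0.00641). With shRNA#1 the level was at the floor and no fold is given.

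MMP11 and MMP19 were called with shRNA#1. MMP11, the furin-activated stromelysin-3, was at 0.242, 0.249 and 0.43 CPM in the control, 0.561, 1.53 and 0.6 CPM with shRNA#1 and 0.824, 0.604 and 0.552 CPM with shRNA#3, so that all 6 knockdown libraries were above the controls. Its log2 fold change was 1.5 (SE 0.50, adjusted p = 0.0298) with shRNA#1, 1.07 (SE 0.52, adjusted p = 0.136) with shRNA#3 and 1.31 (SE 0.46, adjusted p = 0.0444) pooled. These calls rested on few counts (5 to 30 per library). The shRNA#1 value was 1.36 (adjusted p = 0.0859) without control A, 1.38 (adjusted p = 0.0972) without control B and 0.9 (adjusted p = 0.158) without shRNA#1 B. The pooled call was lost without any of the control libraries, shRNA#1 B, or shRNA#3 A or B, with adjusted p from 0.0514 to 0.149, as well as with no filter on low counts (adjusted p = 0.0673) and with the replicate block (adjusted p = 0.0644). MMP19, a secreted MMP that cuts basement membrane proteins, is described with the differences between hairpins.

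TIMP3, the matrix-bound inhibitor of MMPs and of several ADAMTS proteases, fell with both hairpins. It stood at 288, 278 and 436 CPM in the control libraries, 109, 117 and 116 CPM with shRNA#1 and 85.7, 66.1 and 51.05 CPM with shRNA#3, without overlap between any groups. The log2 fold change was -1.55 (SE 0.19, adjusted p = 2.46e-05) with shRNA#1 and -2.31 (SE 0.20, adjusted p = 8.42e-07) with shRNA#3. The hairpins differed by -0.76 (SE 0.19, adjusted p = 0.0191), which was under the fold threshold.

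TIMP4, the least abundant inhibitor, was at 0.92, 1.44 and 0.765 CPM in the control, 0.0467, 0 and 0.172 CPM with shRNA#1 and 0.647, 0.22 and 0.184 CPM with shRNA#3. All knockdown libraries were below all control libraries. It fell by 3.65 on the log2 scale with shRNA#1 (SE 0.71, adjusted p = 0.00112), and without shRNA#1 C the value was -5.1 (adjusted p = 0.0014). With shRNA#3 the value was -1.6 (SE 0.57, adjusted p = 0.0428), a call that was lost without control A or B or shRNA#3 B or C, with adjusted p from 0.0585 to 0.165, and by DESeq2 (adjusted p = 0.0512). Without shRNA#3 A it was -2.34 (adjusted p = 0.0127). The pooled value was -2.33 (SE 0.64, adjusted p = 0.0143), and -2.02 (adjusted p = 0.0791) without control B and -3.0 (adjusted p = 0.00193) without shRNA#3 A. TIMP4 shares 10.3% of its exonic bases with SYN2, within which it lies on the other strand.

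TIMP1 and TIMP2, the abundant secreted inhibitors, were not called. TIMP2, the inhibitor in the MMP14 activation complex, was at 473, 569 and 684 CPM in the control, 543, 732 and 753 CPM with shRNA#1 and 641, 692 and 789.6 CPM with shRNA#3, with overlapping groups and a pooled log2 fold change of 0.27 (SE 0.14, adjusted p = 0.171). TIMP1 was at 51.4, 65.8 and 63.9 CPM, 60.2, 76.6 and 77.4 CPM and 86.03, 109 and 125 CPM in the same order. Its log2 fold change passed the p threshold but not the fold threshold with shRNA#3 (0.82, SE 0.15, adjusted p = 0.000721). The TIMP1 value with shRNA#1 was 0.24 (SE 0.15, adjusted p = 0.226). With the letter as a replicate block, that value passed the p threshold (adjusted p = 0.0134). So did TIMP2, at 0.27 pooled (adjusted p = 0.0215), 0.23 with shRNA#1 (adjusted p = 0.0195) and 0.31 with shRNA#3 (adjusted p = 0.00377). All of these were under the fold threshold.

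Summed over each family per kilobase of exon, MMP transcripts were higher in every knockdown library, while TIMP sums overlapped between groups. These sums are a description chosen after the values were seen. The 23 MMPs summed to 23.9, 31.02 and 29.8 CPM per kb in the control libraries, 77.8, 115 and 123 with shRNA#1 and 104, 116 and 132 with shRNA#3. The 19 ADAMTS genes summed to 79.0 ± 4.32, 142.5 ± 29.1 and 111 ± 4.95 CPM per kb (mean ± SD, n = 3 each) and the 5 lysyl oxidases to 60.2 ± 5.69, 146.9 ± 26.7 and 137.6 ± 14.8 in the same order. The 4 TIMPs summed to 180.5, 205 and 258 CPM per kb, 159, 205 and 209 and 189, 208 and 232 in the same order, so these groups overlapped. The fall of TIMP3 took its share of the TIMP sum from 33.8% in the control to 12.98% with shRNA#1 and 7.01% with shRNA#3, and TIMP2 held 47.6%, 62.8% and 59.9%. The ratio of the TIMP sum to the MMP sum was 7.56, 6.61 and 8.65 in the control libraries, 2.04, 1.78 and 1.7 with shRNA#1 and 1.81, 1.78 and 1.76 with shRNA#3. This ratio is of transcripts and says nothing of active enzyme.

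**Figure D2:**
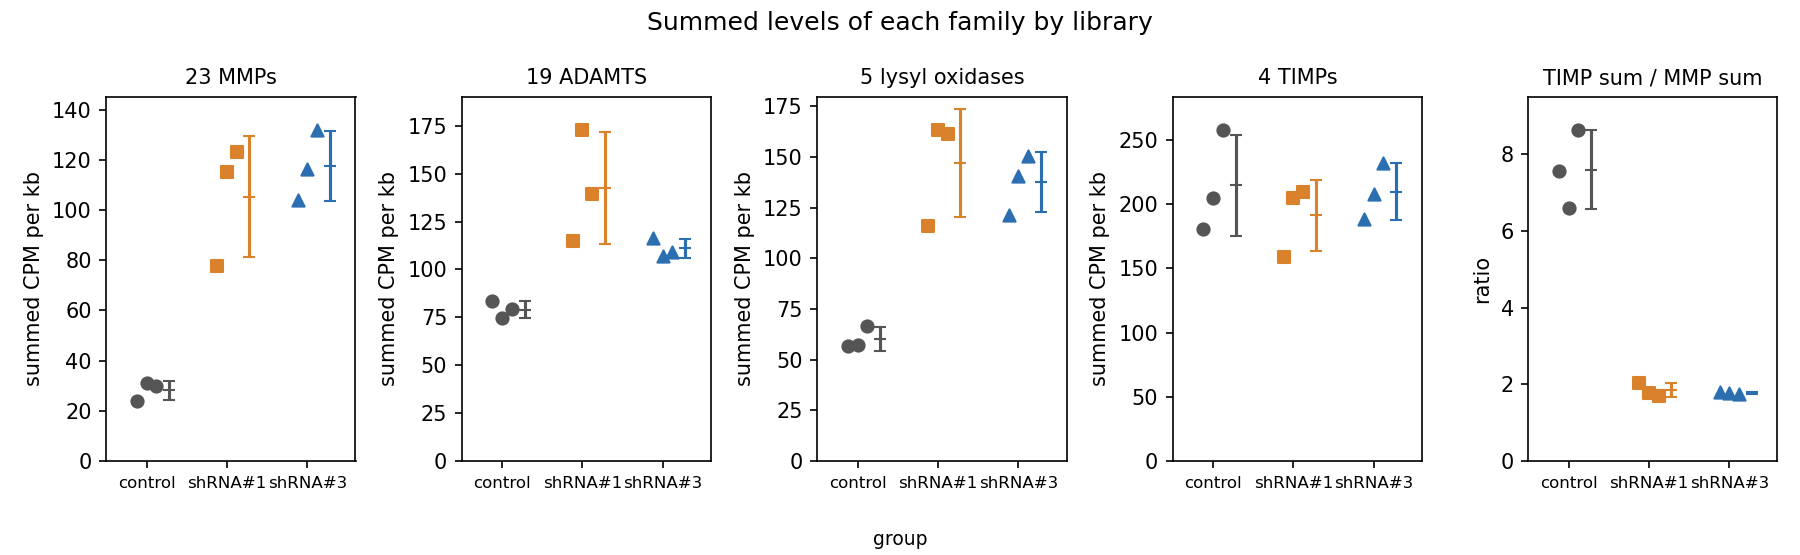
Sum of CPM per kilobase of exon over all members of each family in every library, and the ratio of the TIMP sum to the MMP sum. Points are libraries and bars the mean ± SD of 3 libraries: MMP, ADAMTS and lysyl oxidase sums lie above the control in all 6 knockdown libraries, the TIMP sums overlap, and the ratio goes from a mean of 7.604 to 1.84 and 1.79.

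Among ADAMTS proteases that cut large proteoglycans, ADAMTS4, ADAMTS5 and ADAMTS15 rose with both hairpins. ADAMTS5, the main aggrecanase, was at 8.38, 7.27 and 7.55 CPM in the control libraries, 84.5, 206 and 133 CPM with shRNA#1 and 94.4, 88.3 and 89.99 CPM with shRNA#3. Its log2 fold change was 4.19 (SE 0.26, adjusted p = 4.16e-08) with shRNA#1 and 3.55 (SE 0.26, adjusted p = 1.89e-07) with shRNA#3, with shRNA#1 libraries spread from the lowest to the highest knockdown values. ADAMTS15, a versicanase, went from 18.2, 18.9 and 22.6 CPM to 103, 159 and 123 CPM and 114, 108 and 116 CPM, again with no knockdown library near the controls. Its pooled log2 fold change came to 2.6 (SE 0.15, adjusted p = 1.33e-07), while the other tested genes within 5 Mb had a median of -0.31. ADAMTS4, the other aggrecanase, was at the floor in the control with 3, 1 and 0 counts, against 23, 40 and 15 with shRNA#1 and 24, 22 and 23 with shRNA#3. It was at least 8.57-fold higher with shRNA#1 and at least 8.4-fold higher with shRNA#3 (adjusted p = 0.000373 and 0.00045). The fitted pooled value of 4.12 became 5.34 (adjusted p = 0.000737) without control A.

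ADAMTS1, also a versicanase, was at 102, 74.05 and 70.2 CPM in the control, 138, 104 and 126 CPM with shRNA#1 and 168, 140.3 and 128 CPM with shRNA#3. All knockdown libraries were above the controls, but the pooled value of 0.71 (SE 0.15, adjusted p = 0.00405) was under the fold threshold. With shRNA#3 it was 0.83 (SE 0.15, adjusted p = 0.00088), and without control A that value passed at 1.01 (adjusted p = 0.000128). ADAMTS1 and ADAMTS5 lie 72.5 kb apart on chromosome 21. ADAMTS15 lies 19980 bases from ADAMTS8 on chromosome 11, and ADAMTS8 had at most 1 count in any library. ADAMTS9, the remaining proteoglycanase that was reported, was lower and is described with the differences between hairpins.

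The procollagen N-proteinases rose together. ADAMTS2, which trims types I and III procollagen, was at 0.242, 0.249 and 1.004 CPM in the control, 2.71, 6.41 and 8.79 CPM with shRNA#1 and 2.94, 5.65 and 11.3 CPM with shRNA#3. Library A was the lowest of each knockdown group, and all 6 were above the highest control. Its pooled log2 fold change came to 3.64 (SE 0.62, adjusted p = 0.000716), or 4.65 (adjusted p = 0.00101) without control C, the highest control, and the shRNA#3 value of 3.73 (SE 0.64, adjusted p = 0.000459) was 3.08 (adjusted p = 0.00167) without shRNA#3 C. ADAMTS3, which trims type II procollagen and pro-VEGFC, was at 11.96, 10.8 and 9.89 CPM, 34.8, 50.7 and 33.96 CPM and 65.1, 54.8 and 46.6 CPM, with a pooled log2 fold change of 2.13 (SE 0.21, adjusted p = 1.22e-05). ADAMTS14, the third enzyme of this type, had at most 2 counts in any library.

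ADAMTS10 and ADAMTS17, both tied to fibrillin microfibrils, changed in opposite directions. ADAMTS10 was at 5.42, 6.17 and 9.08 CPM in the control, 11.1, 14.8 and 17.1 CPM with shRNA#1 and 11.3, 16.3 and 19.1 CPM with shRNA#3, and rose by a pooled 1.12 (SE 0.22, adjusted p = 0.00212). That change sat near the fold threshold, and the value was 0.97 (adjusted p = 0.0144) without control A. Singly, it fell under the threshold with shRNA#1 without control A or B or shRNA#1 C (0.91, 0.98 and 0.9), and with shRNA#3 without shRNA#3 C (0.99). ADAMTS17 was at 2.37, 1.69 and 1.48 CPM, 0.608, 0.814 and 0.986 CPM and 0.412, 0.658 and 0.598 CPM in the same order, with every knockdown library below the controls. It fell with shRNA#1 (-1.19, SE 0.33, adjusted p = 0.0109) and with shRNA#3 (-1.71, SE 0.35, adjusted p = 0.00173), and the first value was -0.97 (adjusted p = 0.0543) without control A.

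ADAMTS12, which cuts cartilage oligomeric matrix protein, was by far the most abundant ADAMTS gene per length and was not called against control. It was at 557, 514 and 554 CPM in the control, 544, 896 and 691 CPM with shRNA#1 and 439, 404 and 422 CPM with shRNA#3. Per kilobase it held 70.1% of the ADAMTS sum in the control, 50.99% with shRNA#1 and 38.8% with shRNA#3. The hairpins differed by -0.75 (SE 0.15, adjusted p = 0.00472), and a local difference of similar sign is given with ADAMTS16. The remaining ADAMTS genes without a call were ADAMTS6, ADAMTS7 and ADAMTS13. ADAMTS7, which shares the substrate of ADAMTS12, had means of 7.08 ± 1.8, 6.21 ± 1.23 and 11.7 ± 1.72 CPM (SD, n = 3 each), with hairpins that differed by 0.92 (SE 0.21, adjusted p = 0.0109), or 1.09 (adjusted p = 0.0137) without shRNA#1 B. ADAMTS6, whose substrates are less well described, had 16.5 ± 3.83, 13.4 ± 2.69 and 21.9 ± 2.07 CPM. ADAMTS7 has pseudogene copies elsewhere, which had 12 counts or fewer each over all libraries. ADAMTS13, the protease of von Willebrand factor, had means of 0.389 ± 0.256, 0.622 ± 0.378 and 1.03 ± 0.675 CPM. With shRNA#3 the ADAMTS13 value was 1.43 (SE 0.67, adjusted p = 0.121), and with the replicate block it was called at 1.41 (adjusted p = 0.0119, with a range over the alternatives of 0.0119 to 0.456). With no filter on low counts it was called as well (adjusted p = 0.0174). Without shRNA#3 A, whose library had the lowest value of its group, it was 1.81 (adjusted p = 0.0403).

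LOX and LOXL1, the lysyl oxidases best known for crosslinking collagen and elastin, rose with both hairpins. LOX was at 15.3, 23.1 and 29.3 CPM in the control libraries, 116, 209.6 and 175 CPM with shRNA#1 and 87.03, 150.4 and 144 CPM with shRNA#3. Library A was the lowest of each group, and the lowest knockdown library was well above the highest control. The log2 fold change of LOX was 2.88 (SE 0.27, adjusted p = 2.27e-06) with shRNA#1 and 2.49 (SE 0.27, adjusted p = 8.94e-06) with shRNA#3. LOXL1 went from 26.8, 28.3 and 26.1 CPM to 93.4, 93.4 and 103 CPM and 96.8, 83.01 and 88.01 CPM, with little spread within any group. Its pooled log2 fold change came to 1.78 (SE 0.094, adjusted p = 5.03e-08), and LOXL1-AS1 on the other strand shares 9.21% of its exonic bases.

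LOXL2 and LOXL3 sat just under the fold threshold in opposite directions. LOXL2, which crosslinks type IV collagen, was the most abundant lysyl oxidase per length in all groups. It was at 237, 238 and 289 CPM in the control, 383, 554 and 562 CPM with shRNA#1 and 439.9, 506 and 555 CPM with shRNA#3, and its log2 fold change was 0.97 (SE 0.14, adjusted p = 0.000191) pooled, with all knockdown libraries above the controls. The pooled value passed the threshold without control C, at 1.07 (adjusted p = 0.000702), and without shRNA#1 A or shRNA#3 A, at 1.04 and 1.01, and both single-hairpin values did so without control C or library A of that hairpin. LOXL3 was at 20.6, 15.8 and 15.8 CPM, 9.06, 10.5 and 10.4 CPM and 7.41, 7.74 and 11.7 CPM in the same order, with a pooled value of -0.88 (SE 0.16, adjusted p = 0.00128) and all knockdown libraries below the controls. With shRNA#3 the value was -0.95 (SE 0.18, adjusted p = 0.00109) and passed without control B, control C or shRNA#3 C, at -1.02, -1.02 and -1.21. HTRA2 on the other strand shares 14.3% of the exonic bases of LOXL3. LOXL4 had at most 5 counts in any library. Within the lysyl oxidase sum per kilobase, LOX went from 6.87% in the control to 20.8% with shRNA#1 and 16.9% with shRNA#3, while LOXL3 went from 6.63% to 1.56% and 1.49%.

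**Figure D3:**
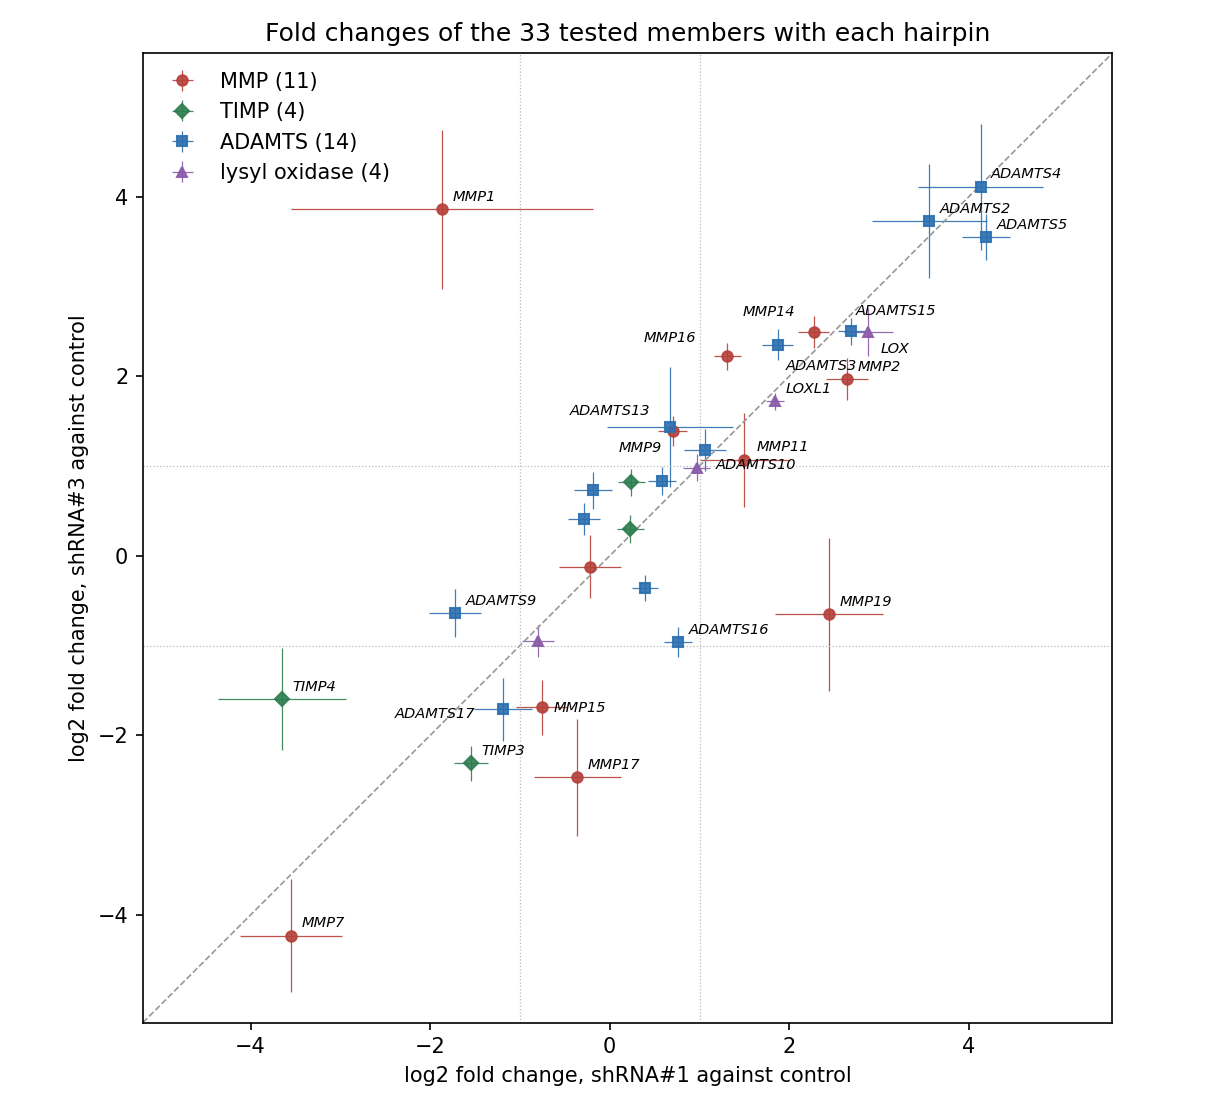
Log2 fold change of the 33 tested members against control with shRNA#1 (horizontal axis) and shRNA#3 (vertical axis), bars showing the SE, the dashed line equal values and the dotted lines a log2 fold change of 1 in either direction. Both axes use the same control libraries. MMP14, MMP2, LOX and ADAMTS15 lie together at the upper right, and MMP1 and MMP19 lie far from the dashed line.

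A direct comparison asked which members responded differently to the hairpins. Of the 33 members, 4 were called between shRNA#3 and shRNA#1, against 3.93% of all tested genes. They were MMP1 and ADAMTS9, higher with shRNA#3 (2.22% of all genes), and MMP19 and ADAMTS16, lower with shRNA#3 (1.72% of all genes). MMP1 reached 10 counts only with shRNA#3 and MMP19 only with shRNA#1, so both had to differ between the hairpins in order to be tested. The median difference of the 33 was 0.003, beside -0.0087 for all tested genes.

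MMP1 was at 0, 0.0995 and 0.287 CPM in the control, 0.0935, 0 and 0 CPM with shRNA#1 and 0.706, 0.878 and 4.19 CPM with shRNA#3, where library C stood far above A and B. It was at least 13.7-fold higher with shRNA#3 than with shRNA#1, computed against 3 counts in each shRNA#1 library (adjusted p = 0.0044). Without shRNA#3 C the bound was at least 5.64-fold. The fitted difference of 5.73 on the log2 scale depends on the prior count, and it was 4.42 (adjusted p = 0.0167) without shRNA#3 C and 8.32 (adjusted p = 0.00802) without shRNA#1 A.

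MMP19 was at 0.0484, 0.0995 and 0.43 CPM in the control, 1.35, 0.763 and 1.11 CPM with shRNA#1 and 0.0588, 0.0549 and 0.23 CPM with shRNA#3. Only shRNA#1 libraries stood above the rest. It rose with shRNA#1 at 2.44 (SE 0.60, adjusted p = 0.00578), or 3.77 (adjusted p = 0.00125) without control C, and the hairpins differed by -3.09 (SE 0.66, adjusted p = 0.00862), or -4.12 (adjusted p = 0.0121) without shRNA#3 C. A pseudogene on the other strand, TMEM198B, with 48 to 154 counts per library, shares 17.4% of the exonic bases of MMP19, and MMP19 itself had at most 29 counts.

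ADAMTS9, a proteoglycanase of development and blood vessels, was at 4.41, 5.18 and 2.92 CPM in the control, 1.31, 1.42 and 1.07 CPM with shRNA#1 and 2.001, 2.47 and 3.45 CPM with shRNA#3. The shRNA#1 libraries were below all others, and the shRNA#3 libraries overlapped the control. It fell with shRNA#1 (-1.72, SE 0.29, adjusted p = 0.000367), while the value with shRNA#3 was -0.64 (SE 0.27, adjusted p = 0.0825). The hairpin difference of 1.07 (SE 0.30, adjusted p = 0.033) was not called without any 1 of shRNA#1 A, B and C and shRNA#3 B and C, with adjusted p from 0.0555 to 0.159. The pooled call of ADAMTS9 (-1.09, SE 0.34, adjusted p = 0.0278) was lost without control A (-1.05, adjusted p = 0.0813), control B (-0.91, adjusted p = 0.135) or any shRNA#1 library, and with the replicate block (adjusted p = 0.0523).

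ADAMTS16, a protease whose substrates are little known, was at 7.07, 7.37 and 7.6 CPM in the control, 10.8, 11.5 and 14.8 CPM with shRNA#1 and 3.83, 3.57 and 3.91 CPM with shRNA#3. The groups did not overlap, with shRNA#1 above and shRNA#3 below the control. The values against control were 0.76 (SE 0.15, adjusted p = 0.00152) and -0.96 (SE 0.17, adjusted p = 0.000485), both under the fold threshold (the second reached -1.0 without shRNA#3 C), and the hairpins differed by -1.72 (SE 0.16, adjusted p = 2.65e-05). The other tested genes within 5 Mb of ADAMTS16, on the short arm of chromosome 5, had median log2 fold changes of 0.49 with shRNA#1 and -0.28 with shRNA#3, and a median difference of -0.80 between the hairpins. Near ADAMTS12, on the same arm, that difference was -0.79. The part of this regional difference in the values of both genes was not tested. Around MMP1, MMP19 and ADAMTS9 the median difference was -0.09, 0.19 and -0.02.

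**Figure D4:**
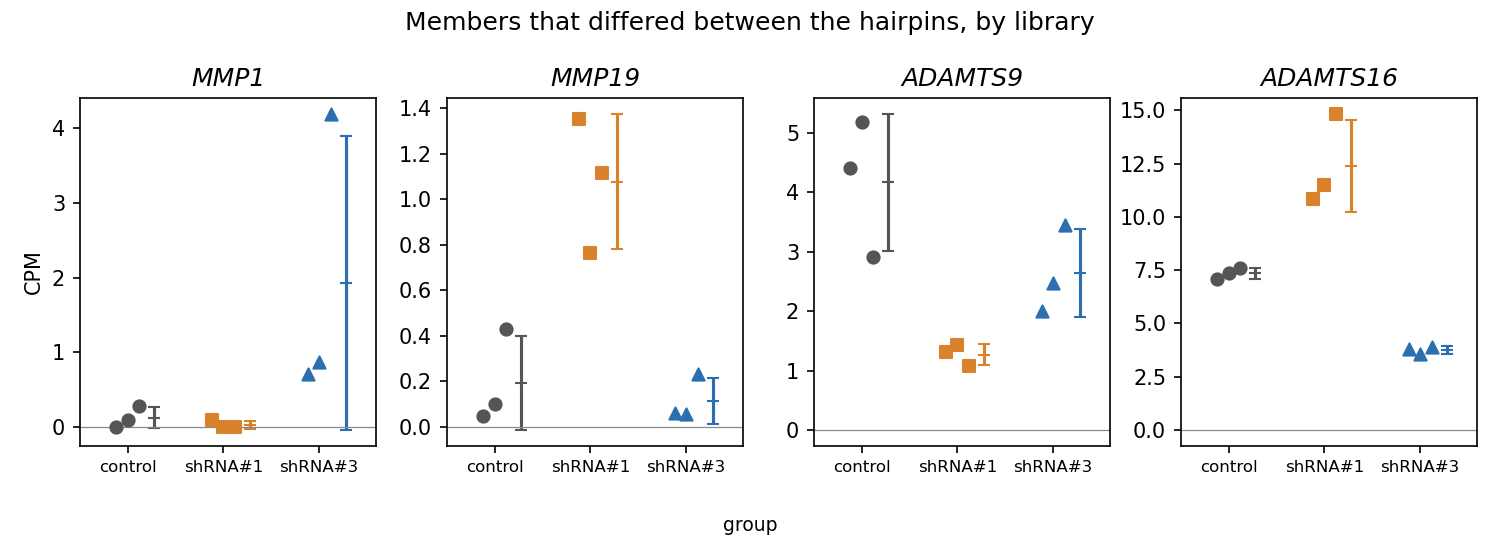
CPM of the 4 members called between the hairpins, in every library (points) with the mean ± SD of 3 libraries (bars), on linear axes that differ between panels. MMP1 is high in shRNA#3 C at 4.19 CPM, MMP19 is high with shRNA#1, ADAMTS9 is low with shRNA#1, and ADAMTS16 lies above the control with shRNA#1 and below it with shRNA#3.

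Genes that act with these families were taken from 6 lists, whose counts stand beside 7.26% of all tested genes called higher and 7.4% called lower in the pooled comparison. Of 19 tested matrix substrates, 11 were higher and 2 lower in the pooled comparison, with a median log2 fold change of 1.27. FBN1, which encodes fibrillin, rose from 4.19 to 150.1 CPM on average (5.16, SE 0.20, adjusted p = 4.65e-09). COL1A2 and COL3A1 were at the floor in the control, with means of 0.0161 and 0.0161 CPM, and were at least 12.1-fold and 4.63-fold higher in the knockdown arm. The bound of COL3A1 was at least 2.9-fold without shRNA#3 A. The adjusted p of COL3A1 was 0.0133, and ranged from 0.00118 to 0.0576 over the alternatives, with the call lost without control B or C. COL1A2 and COL3A1 entered the tests only through knockdown libraries in which they were high. Their calls, counted among the 11 higher, are thus no support.

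Of 21 tested genes for modifying or assembling fibrillar collagen, 2 were higher and none lower in the pooled comparison, with a median of 0.41. That share called higher was near that of all tested genes. With shRNA#3, 4 of the 21 were higher and none lower, where 7.46% of all genes were higher. PLOD2, the lysyl hydroxylase of collagen telopeptides, and P3H1, a prolyl 3-hydroxylase, had pooled log2 fold changes of 1.73 (SE 0.20, adjusted p = 4.07e-05) and 1.91 (SE 0.12, adjusted p = 2.85e-07). ADAMTS-like proteins resemble ADAMTS proteases but lack the protease domain. Of 6 tested, ADAMTSL1 rose by 2.68 (SE 0.33, adjusted p = 5.63e-05) and ADAMTSL3 by 2.1 (SE 0.22, adjusted p = 1.90e-05) on the log2 scale. None was called lower in the pooled comparison, and 1 was with shRNA#3. The median of that list was 0.75.

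In the plasminogen system, 1 of 10 tested genes was higher and 1 lower, with a median of -0.14. SERPINE2, a serpin that inhibits plasminogen activators, went from 28.3 to 89.2 CPM (1.66, SE 0.36, adjusted p = 0.00396). Its mean was 125.5 CPM with shRNA#1 and 52.9 CPM with shRNA#3, and with shRNA#3 no gene of this list was called higher. PLAT, the tissue plasminogen activator, went from 277 to 44.3 CPM (-2.64, SE 0.22, adjusted p = 2.71e-06). Among 17 pericellular and lysosomal proteases and their inhibitors, 3 were higher and 2 lower, with a median of 0.16. CST6, an inhibitor of lysosomal cysteine proteases, fell from 499.6 to 7.82 CPM, HTRA1, a secreted serine protease, rose from 1.13 to 17.9 CPM, and MME, the cell-surface peptidase neprilysin, rose from 17.3 to 70.1 CPM. RECK, a membrane-anchored inhibitor of MMPs named after its value was seen, rose from 12.9 to 40.3 CPM (1.64, SE 0.12, adjusted p = 6.89e-07). Of 10 tested ADAM sheddases, 2 were higher and 3 lower, with a median of -0.33. ADAM28 fell, at -3.84 (SE 0.31, adjusted p = 1.68e-06), as did ADAM8, at -3.68 (SE 0.16, adjusted p = 1.15e-08), while ADAM12 rose, at 2.93 (SE 0.50, adjusted p = 0.000771). ADAM28 reached 10 counts only in the control and ADAM12 only with the hairpins, so the calls of these genes are no support.

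The 18 members under the reporting level were not tested. MMP10, MMP12, MMP26, MMP27, MMP28, ADAMTS19 and ADAMTS20 had 0 counts in all 9 libraries. MMP3, MMP8, MMP13, MMP20, MMP21, MMP23B, ADAMTS8, ADAMTS14, ADAMTS18 and LOXL4 had 0 counts in at least 3 libraries and 7 or fewer in any. MMP25, a lipid-anchored MMP of leukocytes, had 1, 4 and 3 counts in the control, 5, 4 and 2 with shRNA#1 and 5, 7 and 10 with shRNA#3, and MMP25-AS1 shares 35.2% of its exonic bases. At library totals of this size, a count of 0 allows up to 3 counts per library, so absence of these transcripts was not shown.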

How the data were processed

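OVCA433 RNA was poly(A)-selected and sequenced from non-directional libraries. Per the submitters' processing notes, the tools were HISAT2 2.0.5 and featureCounts 1.5.0-p3 and the build hg38. The authors deposited a table of unnormalized counts of reads in each gene. CPM values here are these counts scaled with TMM factors, and CPM per kb divides them by the exonic length in the table. Depth was 16850854 to 23890191 counts per library, and replicates differed by 3.58 to 9.33 times the counting noise (median over genes), so none was a duplicate.

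Genes were filtered with filterByExpr (minimum count 10, minimum total 15), leaving 15975, and tested with edgeR 4.0.16 (glmQLFit, glmQLFTest) in R 4.3.3, checked on simulated counts. Following the study's grouping, both hairpins formed 1 arm in a 2-group fit. The groups were also compared in a 3-group fit of all 9 libraries. Calls used the study's thresholds. A group with no library above 3 counts of a gene was taken to be at the floor for it.

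Same-lettered libraries had deviations from their group means that correlated at 0.611 to 0.655 for A, 0.0651 to 0.321 for B and 0.436 to 0.531 for C over 9693 genes. All pairs passed 0.1 for shRNA#3 against control and against shRNA#1, so the letters were taken to pair these groups. The pair of control and shRNA#1 B did not pass. The main fits held no term for the letters, so their p-values are unpaired, and the replicate block was run as an alternative.

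Alternatives were the Wald test of DESeq2 1.42.0, its size factors or the library totals in place of TMM, no filter, the replicate block, no fold threshold, other models, and each library left out. Members with at least 10 counts in at least 3 libraries are named with values, those called also by library, the others with their counts. Of each list at most 3 called genes with the largest pooled change are named. Exonic overlaps were taken from GENCODE 29 and promoter sequences from RefSeq (GRCh38.p14). The members and lists were chosen with earlier results of these data known.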

Additional observations from a re-analysis of the deposited data

Results flagged for a closer look

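MMP1, MMP19, ADAMTS9 and ADAMTS16 stood out because the direct edgeR test between the hairpins was passed. MMP1 and MMP19 entered that test only through the group in which they were high, so their p-values are no support. The log2 difference of shRNA#3 from shRNA#1 was 5.73 for MMP1, -3.09 for MMP19, 1.07 for ADAMTS9 and -1.72 for ADAMTS16, with adjusted p of 0.0044, 0.00862, 0.033 and 2.65e-05. The value of MMP1 is a fit against a group at the floor, where the bound is at least 13.7-fold, or 5.64-fold without shRNA#3 C. For ADAMTS16 the other tested genes within 5 Mb differed by a median of -0.80 in the same direction.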

How the results depend on the processing

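The number of called members stayed within 1.5 times its value under every alternative run, with 1 exception: without the fold threshold 11 members differed between the hairpins, against 4 with it. The share of all tested genes without the fold threshold was not computed, so that count has nothing to stand beside. With each library left out in turn, 15 to 19 members were called in the pooled comparison, 16 to 19 with shRNA#1, 18 to 21 with shRNA#3 and 3 to 5 between the hairpins. With the replicate block these counts were 17, 18, 20 and 5. The block took away the pooled calls of MMP11 and ADAMTS9 and added those of ADAMTS13 with shRNA#3 and MMP17 between the hairpins.

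Signs changed only for members that were not called in that comparison. With each library left out, log2 fold changes spanned 0 between the hairpins for ADAMTS2 (-0.481 to 0.565), ADAMTS4 (-0.338 to 0.51), ADAMTS10 (-0.064 to 0.301), LOXL2 (-0.156 to 0.099), MMP11 (-0.673 to 0.17), MMP24 (-0.101 to 0.346) and TIMP2 (-0.069 to 0.155). They did so in the pooled comparison for ADAMTS6 (-0.038 to 0.297), ADAMTS12 (-0.121 to 0.141), ADAMTS16 (-0.126 to 0.291) and MMP24 (-0.317 to 0.13). With shRNA#1 they did so for ADAMTS7 (-0.364 to 0.007) and MMP24 (-0.469 to 0.084), and with shRNA#3 for MMP19 (-1.679 to 0.679) and MMP24 (-0.269 to 0.178). The 3-group model gave -0.103 for the pooled ADAMTS16 value. For ADAMTS4 between the hairpins, library totals gave 0.002 and the replicate block 0.066. The cause was not tested. Low counts limit MMP1, MMP7, MMP11, MMP17, MMP19, TIMP4 and ADAMTS4, and 3 libraries per group limit all values.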
